A study of Mus musculus with 24 samples.

Results

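Liver RNA of 3 male mice given hairpin vectors against Kdm5b and Kdm5c (Kdm5 males) was compared with that of 3 males given control hairpins only (control males). These 6 animals were taken by sex and by vector from 24 liver libraries. All 24 mice had been fed the Lieber-DeCarli diet, a liquid diet with alcohol, for 3 weeks, and all carried adeno-associated virus (AAV) from 2 injections. In the Kdm5 males the first injection held AAV-shKdm5b with AAV-shKdm5c and the second held AAV-shControl, while the control males received AAV-shControl at both. Another 6 males had AAV-shAhR, a hairpin against the aryl hydrocarbon receptor gene, as the second injection, after AAV-shControl in 3 (AhR males) and after the Kdm5 pair in 3 (Kdm5 and AhR males). For females, the groups used here are those with the same injections as the control males and the Kdm5 males, 3 mice each. Every group ate alcohol and carried virus, so each comparison is between hairpins and not with unfed or uninjected liver. Strain, age, the promoter of the hairpins, the virus dose, the cage and the hour of collection are in none of the sources used, and nothing states that animals were pooled.

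KDM5 proteins take methyl groups off lysine 4 of histone H3, a mark that is found at the start sites of active genes. Kdm5c lies on the X chromosome and has a homolog on the Y chromosome, Kdm5d, so that male cells hold 1 copy of each, while Kdm5b is autosomal. In liver most RNA comes from hepatocytes, the cells that metabolise alcohol, lipids and drugs, and many hepatocyte genes follow the daily clock and the glucocorticoid rhythm.

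Values are FPKM, fragment counts of a gene divided by its transcript length and by the total mapped in the library. Fold changes are on the log2(FPKM + 0.5) scale and carry their standard error after the ± sign. That error comes from 1 spread per gene over all 24 libraries, not from the compared mice alone. A gene passed when its limma p, adjusted over all 2299 genes tested, was under 0.05. Read depth is unknown, since FPKM removes it. The FPKM of the table summed to between 380206 and 429780 in the 6 libraries, and the 19 genes of the major urinary proteins took between 16.4% and 25.7% of those sums. Libraries of 1 group correlated at 0.987 or above. On the first principal component of the 6 libraries, with 33.3% of the variance, the 3 control males lay between 4.1 and 9.6 and the 3 Kdm5 males between -7.7 and -5.9. On the second, with 27.4%, control males 1 and 3 lay at the 2 ends, at 9.1 and -11.1. The 10 tested hepatocyte markers summed to between 48487 and 52085 FPKM in control males and between 49590 and 50367 FPKM in Kdm5 males, so the labelled tissue and its markers match. In the groups with AAV-shAhR, AhR male 3 stood apart from AhR males 1 and 2 for the genes described below, and results that rest on it are given with and without it.

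Kdm5c, the target that could be followed, measured 6.39, 6.80 and 7.21 FPKM in control males 1, 2 and 3 and 4.89, 4.64 and 5.89 FPKM in Kdm5 males 1, 2 and 3. All 3 Kdm5 males lay below all 3 control males, but the change of -0.38 ± 0.11 log2 had an adjusted p of 0.139 and did not pass. Nor did it pass in any of the 6 fits that left out 1 library, with changes from -0.47 to -0.31. Kdm5d stood at 2.07, 2.08 and 1.5 FPKM in control males and at 2.07, 1.93 and 2.36 FPKM in Kdm5 males, and these overlapping groups differed by 0.14 ± 0.14 log2 (adjusted p = 0.869). The levels of Kdm5b and of Ahr were not analysed here.

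With the Kdm5 vectors, 24 of 2299 genes rose (1.04%) and 4 fell (0.174%), together 1.22% of the genes tested. The raised genes changed by 0.47 to 2.65 on the log2 scale, with a median of 0.82, against a median of 0.01 over all genes. They included the phosphatidate phosphatase gene Lpin1, the transcription factor gene Zbtb16, the clock repressor gene Ciart and the receptor genes Il1r1, Il6ra and Nr1i2. The lowered genes were Ugt2b38, Slc25a30, Wrnip1 and Pnrc1, with changes from -1.38 to -0.38. For all 28 genes the Kdm5 males and the control males did not overlap. That was also so for 340 of the 2299 genes (14.8%), 223 of them higher (9.70%) and 117 lower (5.09%). At an unadjusted p under 0.05 there were 228 genes (9.92%). Just outside the threshold lay Usp2 (adjusted p = 0.0653), Abtb2 (0.0775) and, at 0.0949 each, Tbx3, Klf13 and Hnf4a. The count of 28 rested on single libraries: it was 1, 14 or 9 when control male 1, 2 or 3 was left out, and 0, 11 or 14 when Kdm5 male 1, 2 or 3 was left out. At 0 calls, limma still gave 194 genes an unadjusted p under 0.05.

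**Figure D1:**
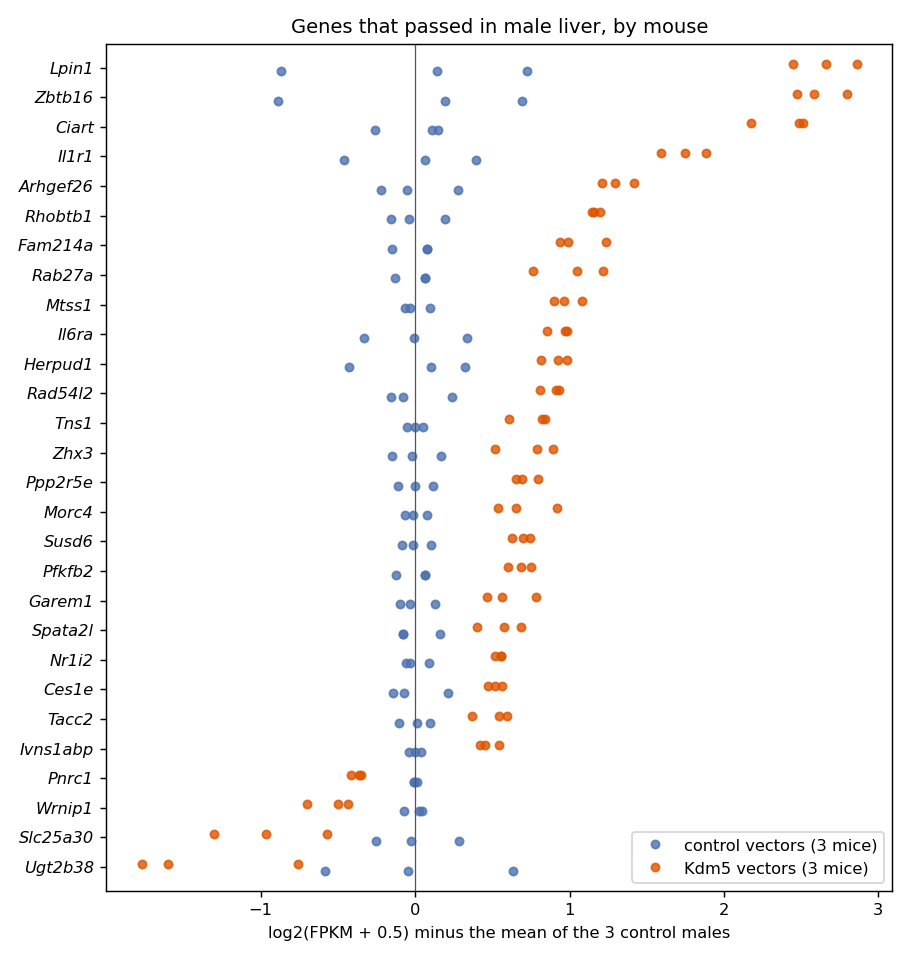
Each of the 28 genes that passed is a line, ordered by log2 fold change, and each point is 1 mouse as log2(FPKM + 0.5) minus the mean of the 3 control males (blue, control males; orange, Kdm5 males). In every line the orange points lie on one side of the blue points, with the widest distance for Lpin1, Zbtb16 and Ciart.

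Lpin1 encodes lipin 1, which makes diacylglycerol for triglyceride synthesis and also acts as a transcriptional coactivator; it lies on chromosome 12 from 16535669 to 16653903 (GRCm38.p6). It stood at 4.66, 15.1 and 9.90 FPKM in control males 1, 2 and 3 and at 67.9, 50.9 and 59.0 FPKM in Kdm5 males 1, 2 and 3. The lowest Kdm5 male lay far above the highest control male, while the control males themselves spread widely. The change was 2.65 ± 0.50 log2, 6.30-fold (adjusted p = 0.0111), and it passed in 4 of 6 fits without 1 library. Without control male 1 or Kdm5 male 1 it did not pass, and over the 6 fits it ranged from 2.22 to 3.02 with a highest adjusted p of 0.0649. Its relative Lpin2 measured 19.7, 35.4 and 31.9 FPKM against 40.3, 41.2 and 43.6 FPKM, groups that did not overlap, with a change of 0.56 ± 0.22 (adjusted p = 0.367, not passed). Plin4, a lipid droplet coat protein, measured 3.56, 1.87 and 2.91 FPKM against 8.09, 6.73 and 5.39 FPKM (1.16 ± 0.32, adjusted p = 0.113). Of the 18 tested genes of triglyceride synthesis, storage and lipolysis, Lpin1 alone rose and none fell. The median of that list was -0.02 and 9 of its genes lay above 0, against 52.7% of all genes.

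Il1r1 and Il6ra, 2 of the raised receptor genes, serve inflammatory cytokine signalling. Il1r1, the receptor that passes on interleukin 1 (chromosome 1, 40222480 to 40316201), stood at 6.84, 12.8 and 10.1 FPKM in control males and at 33.4, 36.7 and 29.9 FPKM in Kdm5 males. All Kdm5 males were well above all control males, with a change of 1.74 ± 0.31 log2, 3.34-fold (adjusted p = 0.0111). It failed without control male 1 or Kdm5 male 1, where the adjusted p was at most 0.0614, and ranged from 1.51 to 1.94. Il6ra, the alpha chain that binds interleukin 6 (chromosome 3, 89869324 to 89913196), stood at 8.0, 13.0 and 10.2 FPKM against 18.8, 20.4 and 20.7 FPKM. The Kdm5 males lay close together and above the controls, with a change of 0.94 ± 0.19 log2 (adjusted p = 0.0163), which passed without control male 2 and failed in the other 5 such fits (0.77 to 1.10). The wider list did not follow these 2 genes. Of 15 tested genes of cytokine receptors and their signalling, 3 lay above 0 and the median was -0.22. Ifnar2, a chain of the interferon receptor, measured 80.1, 89.5 and 75.2 FPKM against 70.6, 70.1 and 68.9 FPKM (-0.22, adjusted p = 0.424), and Cish, a feedback inhibitor of cytokine signalling, overlapped between the groups (-0.76, adjusted p = 0.509). Among the products of cytokine signalling, none of 13 acute phase genes passed, with a median of 0.13. Lcn2, for example, stood at 21.0, 8.38 and 21.3 FPKM against 32.8, 45.3 and 22.1 FPKM (1.02 ± 0.55, adjusted p = 0.598), groups that only just did not overlap.

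Zbtb16, also called PLZF, a zinc finger transcription factor (chromosome 9, 48651797 to 48836225), was scarce in control males, at 0.51, 2.52 and 1.64 FPKM, and stood at 9.87, 10.7 and 12.5 FPKM in Kdm5 males. The Kdm5 males were close to each other and the controls were not, as for Lpin1. It rose by 2.62 ± 0.61 log2, 6.14-fold (adjusted p = 0.0367). Leaving out any 1 library took it over the threshold (2.17 to 2.96, highest adjusted p = 0.168). Nr1i2, the receptor PXR that senses foreign compounds (chromosome 16, 38248349 to 38294849), measured 20.8, 22.8 and 20.5 FPKM against 31.6, 31.6 and 30.7 FPKM. That is a small and even change of 0.54 ± 0.12 log2 (adjusted p = 0.0308), and it too failed in all 6 fits without 1 library (0.51 to 0.59, highest adjusted p = 0.121). Among the 38 tested genes of P450 drug and steroid metabolism, Nr1i2 was the gene that passed and the median was -0.03. Cyp2c37 measured 220, 317 and 206 FPKM against 168, 130 and 196 FPKM, lower in all 3 Kdm5 males, with a change of -0.58 ± 0.20 (adjusted p = 0.271). Cyp2f2 likewise lay lower without passing (-0.35 ± 0.15, adjusted p = 0.418). Reads of close copies within the Cyp2c family can be shared, so a single member is uncertain.

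Ciart encodes a repressor of the CLOCK and BMAL1 proteins, which drive daily transcription from E-box sequences (chromosome 3, 95878500 to 95882257). It stood at 1.5, 1.05 and 1.56 FPKM in control males and at 7.88, 10.1 and 9.87 FPKM in Kdm5 males. Here the controls were close to each other as well, and the groups lay far apart. The change was 2.39 ± 0.55 log2, 5.24-fold (adjusted p = 0.0359), and it failed in each of the 6 fits without 1 library (2.26 to 2.50, highest adjusted p = 0.180).

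Ciart and 3 other raised genes are shown with the 250 bases before their start sites, since these windows hold the E-box CACGTG through which the clock proteins are known to act. The sequences are from RefSeq (GRCm38.p6), read 5′ to 3′ in the direction of the gene, with the E-boxes in capitals. They lie at chr3:95882229-95882478 for Ciart (minus strand), chr3:89913197-89913446 for Il6ra (minus strand), chr9:74952630-74952879 for Fam214a (plus strand) and chr10:69212407-69212656 for Rhobtb1 (plus strand).
Ciart: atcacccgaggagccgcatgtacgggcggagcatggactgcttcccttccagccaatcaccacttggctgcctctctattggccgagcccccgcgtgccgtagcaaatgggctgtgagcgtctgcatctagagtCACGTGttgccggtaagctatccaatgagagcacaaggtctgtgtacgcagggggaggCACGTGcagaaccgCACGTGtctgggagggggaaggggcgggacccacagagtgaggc
Il6ra: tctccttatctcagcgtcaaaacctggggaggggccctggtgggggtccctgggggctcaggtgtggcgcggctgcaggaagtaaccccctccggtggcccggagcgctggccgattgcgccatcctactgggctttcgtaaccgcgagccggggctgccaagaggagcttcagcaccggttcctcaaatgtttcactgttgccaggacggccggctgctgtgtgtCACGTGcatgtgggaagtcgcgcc
Fam214a: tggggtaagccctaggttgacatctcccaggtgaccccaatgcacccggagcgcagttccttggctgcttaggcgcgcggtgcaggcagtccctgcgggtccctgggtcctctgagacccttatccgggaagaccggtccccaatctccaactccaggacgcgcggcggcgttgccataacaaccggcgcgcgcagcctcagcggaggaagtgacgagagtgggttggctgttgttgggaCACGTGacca
Rhobtb1: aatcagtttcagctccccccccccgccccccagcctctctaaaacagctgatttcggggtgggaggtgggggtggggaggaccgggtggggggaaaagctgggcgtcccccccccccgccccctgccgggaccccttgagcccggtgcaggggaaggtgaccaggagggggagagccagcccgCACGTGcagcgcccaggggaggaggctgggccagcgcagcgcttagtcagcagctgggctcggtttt
The 3 E-boxes of Ciart begin 116, 58 and 44 bases before its start, and those of Il6ra, Fam214a and Rhobtb1 begin 24, 10 and 67 bases before theirs. Fam214a and Rhobtb1 have 3 start sites each in the table, and the windows shown were picked from them. The other 2 windows of Fam214a hold an E-box at 183 and 223 bases before their starts, the first of these being the same site as the one shown, and the other 2 of Rhobtb1 hold none. A window was on hand for 18 of the 24 raised genes and for all 4 lowered genes. CACGTG, which reads the same on both strands, was in the windows of 7 of the 18 raised genes (38.9%), the others being Ivns1abp, Pfkfb2 and Rab27a, and in none of the 4. The share was 9.74% of the 1827 tested genes with a window and 6.02% of all 32851 windows of the table. Counted by window, since a gene can have several, it was 32.1% of 28 windows of raised genes and 7.89% of 2396 windows of tested genes. The D-box TTATGTAA, searched on both strands, was in the window of 1 raised gene, Ces1e, against 1.2% of tested genes. The glucocorticoid response element, GAACA and TGTTC with 3 bases of any kind between them, was in none of the 18, against 0.109% of tested genes. The motifs were chosen after the raised genes were known, and a match is a run of letters and not a site shown to be bound.

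The clock list shows which other genes of the rhythm differed. Of 14 tested clock core and output genes, Ciart rose and none fell, 12 lay above 0, and the median was 0.52 against 0.01 for all genes. These values include Ciart, and the list was chosen with earlier results of these data known, so they are given as a description. Usp2, a clock-controlled ubiquitin protease, measured 2.70, 3.22 and 3.17 FPKM in control males and 6.70, 8.78 and 8.96 FPKM in Kdm5 males, higher in all 3 (1.28 ± 0.33, adjusted p = 0.0653). Per1, a repressor of the core loop, measured 3.57, 5.02 and 6.70 FPKM against 8.17, 9.38 and 7.72 FPKM, again without overlap (0.71 ± 0.21, adjusted p = 0.163). The 2 genes below 0 were Npas2, at -0.13, and Arntl, which encodes BMAL1. Arntl measured 7.19, 4.98 and 7.69 FPKM against 5.12, 3.67 and 4.28 FPKM (-0.54 ± 0.17, adjusted p = 0.186), and its groups overlapped by 1 mouse. Control male 3 had the lowest level among the 6 libraries for several output genes, named here after their values were seen. Dbp, for example, measured 8.96, 10.8 and 2.87 FPKM in control males and 7.10, 19.1 and 11.6 FPKM in Kdm5 males, and Nr1d1 35.5, 30.1 and 11.1 FPKM against 30.2, 52.2 and 37.2 FPKM. Both therefore overlapped between the groups, unlike Ciart, Usp2, Per1 and Nr1d2. Over the alternative settings the list's median lay between 0.26 and 0.63. In the Kdm5 and AhR males against the AhR males, AhR male 3 included, the list's median was 0.13, against -0.08 for all genes. There 8 of the 14 lay above 0 and 1 passed lower (2.35% of all genes). In females the median was -0.10, against -0.02 for all genes, and 6 lay above 0. The hour of collection was not in the sources used here, so a difference in hour and the Kdm5 vectors cannot be told apart for these genes.

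Of 25 tested glucocorticoid-responsive genes, 4 rose and none fell, 20 lay above 0, and the median was 0.40. Lpin1, Zbtb16, Il1r1 and Il6ra, the 4 that rose, had been put on the list with these results known, so they say nothing on its direction. The other 21 genes were also listed with earlier results of these data known, so their values are a description and no support for a direction. Of these 21, set apart after the values were seen, 16 lay above 0, where 52.7% of all genes did. Their median was 0.33 against 0.01 for all genes. Among these 21, 8 did not overlap in the higher direction (9.70% of all genes) and 1, Pdk4, in the lower (5.09%). Tat, which breaks down tyrosine, stood at 368, 491 and 715 FPKM in control males and at 1033, 882 and 923 FPKM in Kdm5 males (0.90 ± 0.34, adjusted p = 0.327). Fkbp5, the glucocorticoid receptor's co-chaperone, was named after its values were seen. It stood at 13.4, 16.6 and 22.8 FPKM against 35.6, 31.1 and 38.9 FPKM (1.01 ± 0.29, adjusted p = 0.133). Both genes were higher in every Kdm5 male without passing. Tsc22d3 and Sgk1, further textbook targets named after their values were seen, overlapped between the groups with changes of 0.21 and 0.05 (adjusted p = 0.918 and 0.973). Pdk4 measured 3.36, 2.47 and 2.05 FPKM against 1.94, 1.93 and 1.45 FPKM (-0.45 ± 0.23, adjusted p = 0.575). The genes of the list thus did not move as one. Over the alternative settings the median of the 21 lay between 0.19 and 0.35, and between 0 and 4 of them passed. In the Kdm5 and AhR males against the AhR males, AhR male 3 included, all 25 had a median of -0.34, against -0.08 for all genes. There 10 lay above 0, 2 passed higher (0.913% of all genes) and 7 lower (2.35%). In females the median of the 25 was -0.11, against -0.02 for all genes, and 9 lay above 0.

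**Figure D2:**
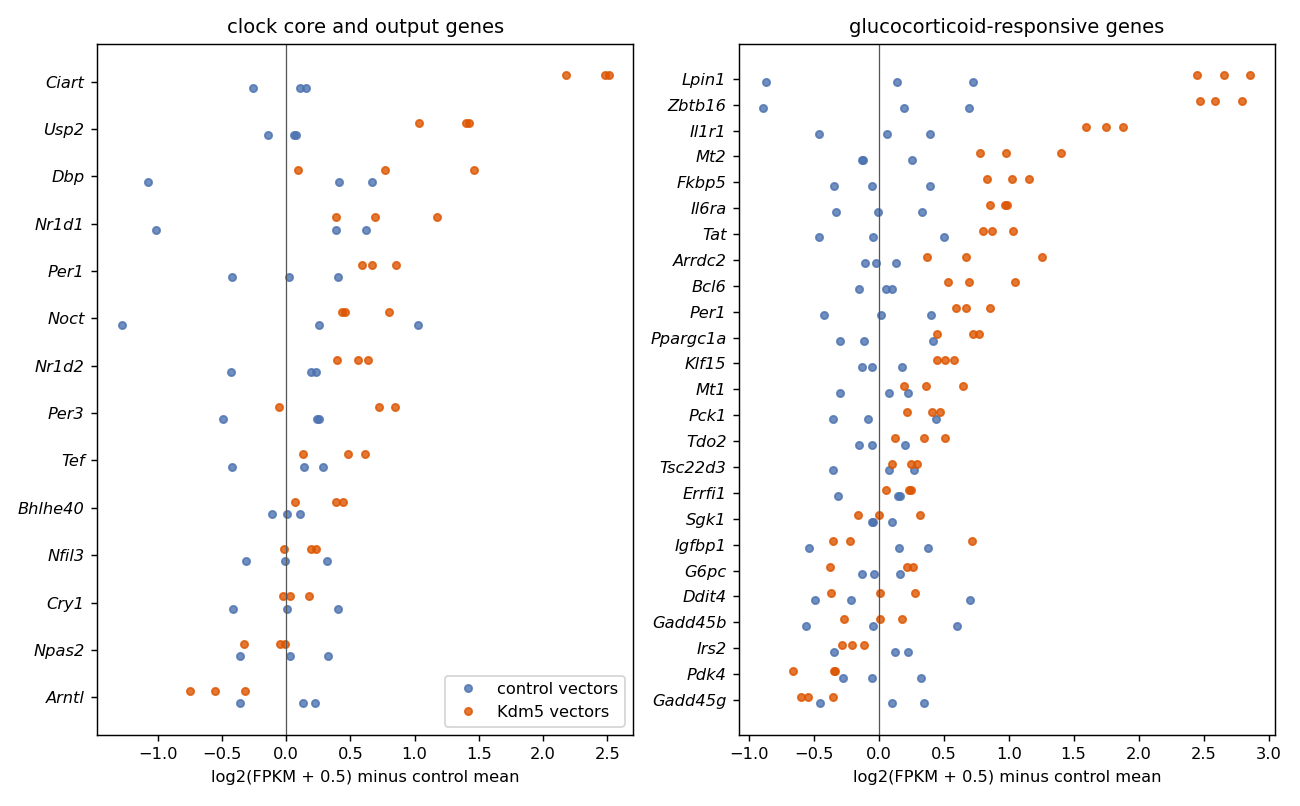
Points are single mice as log2(FPKM + 0.5) minus the control mean (blue, 3 control males; orange, 3 Kdm5 males) for the 14 clock genes and the 25 glucocorticoid-responsive genes, ordered by their mean. Ciart and Usp2 stand clear of their controls, while Dbp, Nr1d1 and Noct spread widely among the control males themselves; Lpin1, Zbtb16 and Il1r1 lead the second list.

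A group of 7 raised genes encodes proteins of the cytoskeleton, small GTPases and vesicles, a grouping made after they were known. Arhgef26, a guanine nucleotide exchange factor, stood at 3.39, 4.99 and 3.87 FPKM in control males and at 9.98, 10.6 and 11.6 FPKM in Kdm5 males (1.31 ± 0.25, adjusted p = 0.0111). Rhobtb1, an atypical small GTPase, stood at 7.65, 9.10 and 7.03 FPKM against 18.7, 18.2 and 18.0 FPKM (1.17 ± 0.21, adjusted p = 0.0111). In both genes the Kdm5 males were nearly equal and about as far from the controls. Rab27a, a GTPase of vesicle release, was low throughout, at 0.27, 0.38 and 0.38 FPKM against 1.46, 0.93 and 1.24 FPKM (1.01 ± 0.18, adjusted p = 0.0111). Mtss1, which binds actin at membranes, stood at 15.2, 17.1 and 15.5 FPKM against 30.0, 34.2 and 31.5 FPKM (0.98 ± 0.19, adjusted p = 0.0111). Tns1, the focal adhesion protein tensin 1, stood at 14.1, 14.6 and 13.6 FPKM against 25.7, 21.8 and 25.3 FPKM (0.76 ± 0.14, adjusted p = 0.0111). Controls were tight for Mtss1 and Tns1, and no Kdm5 male came near them. The other 2 were smaller changes. Tacc2, a protein of centrosomes and microtubules, stood at 3.31, 3.01 and 3.54 FPKM against 5.02, 4.39 and 5.20 FPKM (0.50 ± 0.12, adjusted p = 0.0413), and Ivns1abp, a kelch protein that protects actin filaments, rose by 0.47 ± 0.09 (adjusted p = 0.0111). Without 1 library these genes passed in 0 (Tacc2), 2 (Arhgef26, Mtss1, Ivns1abp), 3 (Tns1) or 4 (Rhobtb1, Rab27a) of 6 fits. All 7 failed without control male 1 and without Kdm5 male 1, with a highest adjusted p of 0.228 for Tacc2.

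Enzymes, their regulators and stress genes made up a further set, grouped in the same way. Ppp2r5e, which directs protein phosphatase 2A to its substrates, stood at 8.33, 7.65 and 7.04 FPKM in control males and at 13.7, 12.7 and 12.3 FPKM in Kdm5 males (0.71 ± 0.12, adjusted p = 0.0111). It was the raised gene that held up in most fits without 1 library, 5 of 6, and failed without Kdm5 male 1 (adjusted p = 0.0532). Pfkfb2, which makes and removes the sugar phosphate that sets the balance of glycolysis and gluconeogenesis, stood at 2.87, 2.46 and 2.87 FPKM against 4.93, 4.39 and 4.68 FPKM (0.68 ± 0.15, adjusted p = 0.0250). Pfkfb2 failed in all 6 such fits (0.62 to 0.72, highest adjusted p = 0.126). Ces1e, a carboxylesterase with close copies that can share reads, stood at 54.8, 42.8 and 44.9 FPKM against 65.8, 69.9 and 67.7 FPKM (0.52 ± 0.12, adjusted p = 0.0367), and also failed in all 6 (0.45 to 0.62). Herpud1, which serves the degradation of misfolded proteins at the endoplasmic reticulum, was the most abundant of the raised genes. It stood at 96.7, 163 and 140 FPKM against 248, 230 and 258 FPKM (0.91 ± 0.21, adjusted p = 0.0367) and passed in 1 of 6 fits, that without control male 2 (0.69 to 1.07). The other genes of endoplasmic reticulum stress did not pass. Of 14 tested, 8 lay above 0 with a median of 0.08. Dnajb9, a chaperone of the same compartment, measured 23.9, 23.3 and 20.1 FPKM against 28.6, 25.6 and 24.2 FPKM (0.22 ± 0.16, adjusted p = 0.768). Of 14 genes of gluconeogenesis and glucose handling none passed, with a median of 0.09; Foxo1, a transcription factor that insulin restrains, measured 6.92, 9.37 and 8.36 FPKM against 11.7, 11.5 and 11.7 FPKM (0.48 ± 0.17, adjusted p = 0.292).

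The remaining raised genes act in the nucleus or in signalling, or have no role given here. Rad54l2, a helicase of the SNF2 type, stood at 3.39, 2.46 and 2.63 FPKM in control males and at 5.79, 5.71 and 5.28 FPKM in Kdm5 males (0.88 ± 0.21, adjusted p = 0.0367). Zhx3, a zinc finger and homeobox protein, stood at 3.65, 4.66 and 4.03 FPKM against 7.43, 6.08 and 8.02 FPKM (0.73 ± 0.15, adjusted p = 0.0193). Morc4, an ATPase of the MORC family on the X chromosome, was low, at 0.79, 0.67 and 0.71 FPKM against 1.81, 1.42 and 1.27 FPKM (0.70 ± 0.16, adjusted p = 0.0304). In all 3 genes the lowest Kdm5 male exceeded the highest control male. Garem1, an adaptor of MAP kinase signalling, stood at 5.56, 5.29 and 6.26 FPKM against 10.2, 8.04 and 8.66 FPKM (0.60 ± 0.12, adjusted p = 0.0111). Fam214a stood at 15.1, 12.8 and 15.0 FPKM against 34.2, 27.7 and 28.8 FPKM (1.05 ± 0.20, adjusted p = 0.0111). Spata2l stood at 16.6, 16.6 and 19.7 FPKM against 26.5, 28.6 and 23.4 FPKM (0.56 ± 0.12, adjusted p = 0.0304), and Susd6 rose by 0.69 ± 0.17 (adjusted p = 0.0460). Spata2l had the narrowest distance of these between its highest control and its lowest Kdm5 male. Without 1 library, Garem1 and Fam214a passed in 3 of 6 fits, Zhx3 and Spata2l in 2, Morc4 in 1, and Rad54l2 and Susd6 in 0. All 7 failed without control male 1 and without Kdm5 male 1 (highest adjusted p = 0.182).

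Wrnip1, the fallen gene with the smallest p, encodes an ATPase of DNA replication and repair (chromosome 13, 32802030 to 32822610). It stood at 17.8, 17.6 and 16.3 FPKM in control males and at 12.02, 10.4 and 12.6 FPKM in Kdm5 males, tight groups with a clear distance between them. It fell by 0.55 on the log2 scale (standard error 0.11, adjusted p = 0.0111). It passed without control male 3 or Kdm5 male 3 and failed in the other 4 such fits (-0.60 to -0.47, highest adjusted p = 0.0926). Pnrc1, a coactivator of nuclear receptors, stood at 43.3, 42.5 and 42.7 FPKM against 31.9, 33.2 and 33.5 FPKM (-0.38 ± 0.09, adjusted p = 0.0488). Its groups were the tightest of the 4, and it failed in all 6 fits (-0.39 to -0.36, highest adjusted p = 0.192). Slc25a30, a mitochondrial carrier, stood at 7.44, 9.37 and 6.29 FPKM against 3.64, 4.95 and 2.79 FPKM (-0.95 ± 0.23, adjusted p = 0.0413), and passed without Kdm5 male 2 alone (-1.13 to -0.77). Ugt2b38, a glucuronosyltransferase, stood at 1.5, 2.40 and 4.14 FPKM against 1.27, 0.38 and 0.49 FPKM (-1.38 ± 0.32, adjusted p = 0.0367). Control male 1 and Kdm5 male 1 were nearly level for this gene, which failed in all 6 fits (-1.68 to -1.06), and reads shared with other Ugt2b genes make it uncertain.

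Other lists of liver metabolism had few calls or none. Ugt2b38 was the gene that passed among 35 of phase II conjugation (median -0.01) and among 34 male-biased liver genes. Of the male-biased genes 4 lay above 0 and the median was -0.24; Cyp7b1, which hydroxylates oxysterols, stood at 51.3, 103 and 79.6 FPKM in control males and at 55.7, 41.7 and 49.7 FPKM in Kdm5 males (-0.62 ± 0.29, adjusted p = 0.498). Its groups overlapped, and so did those of Mup2, Elovl3 and C6. Several genes of the male-biased list are major urinary protein genes, close copies that can share reads, so its members are not separate observations. With AAV-shAhR in both groups 23 of the 34 lay above 0 (32.4% of all genes), with a median of 0.14. In females 15 lay above 0, with a median of -0.08. The 30 female-biased genes had a median of 0.01 and none passed. None passed among 24 genes of fatty acid oxidation (median -0.01), 11 of fatty acid synthesis (-0.01), 9 of cholesterol synthesis (-0.12), 19 of bile acids (-0.08) or 10 of ethanol and aldehyde oxidation (0.00). Scd1, a desaturase, shows how far single controls could reach in these lists, at 1163, 311 and 205 FPKM against 115, 460 and 314 FPKM. Adh1, the main alcohol dehydrogenase, measured 1315, 1144 and 714 FPKM against 705, 916 and 913 FPKM (-0.29 ± 0.23, adjusted p = 0.804), with overlapping groups.

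Among genes of histone H3 methylation none passed. The 7 tested H3 lysine 4 methyltransferases and partners all lay above 0, where 52.7% of all genes did, with a median of 0.25, and 4 of them did not overlap, all in the higher direction (9.70% of all genes). In the Kdm5 and AhR males against the AhR males, 1 of the 7 lay above 0 (32.4% of all genes). Their median there was -0.23, against -0.08 for all genes. In females 4 lay above 0 and the median was 0.02, against -0.02 for all genes. Kmt2e measured 5.25, 4.82 and 5.52 FPKM in control males and 6.10, 6.41 and 7.45 FPKM in Kdm5 males (0.33 ± 0.13, adjusted p = 0.346). Kmt2c and Kmt2d, which encode the catalytic subunits of large methyltransferase complexes, both changed by 0.28 (adjusted p = 0.596 and 0.559), small shifts at levels near 1 to 2 FPKM. Of 10 H3 demethylases and sex-chromosome homologs, 9 lay above 0 and Kdm5c was the 1 below. With AAV-shAhR in both groups 4 of the 10 lay above 0, and in females 4. The Y-linked Ddx3y, an RNA helicase, measured 12.7, 11.8 and 8.67 FPKM against 14.0, 13.9 and 15.4 FPKM (0.39 ± 0.17, adjusted p = 0.442), and Uty, a homolog of the demethylase gene Kdm6a, overlapped between the groups (0.38 ± 0.15, adjusted p = 0.346). Of 13 interferon-stimulated genes none passed (median 0.16), and of the genome maintenance list 1 gene, Wrnip1, was tested.

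Markers of other liver cells were followed beside these genes, and none passed. All 11 tested markers of Kupffer cells and macrophages lay below 0, with a median of -0.27 and 2 that did not overlap (5.09% of all genes in that direction). Their FPKM summed to between 254 and 360 in control males and between 240 and 274 in Kdm5 males, ranges that overlap. Vsig4, a complement receptor of Kupffer cells, measured 18.6, 22.7 and 22.4 FPKM against 17.8, 17.4 and 15.5 FPKM (-0.32 ± 0.14, adjusted p = 0.441). In whole liver, fewer cells of a type and less RNA per cell cannot be told apart. The 3 blood cell markers summed to between 521 and 610 FPKM in control males and between 631 and 775 FPKM in Kdm5 males, without overlap. Taken singly, 1 of the 3 did not overlap, in the higher direction (9.70% of all genes). Hbb-bs and Hba-a2 lay at 0.41 and 0.17 (adjusted p = 0.629 and 0.918), and Alas2 lay below 0, at -0.15 (adjusted p = 0.920). The 5 markers of B cells and antigen presentation summed to between 85.04 and 98.5 FPKM against 98.8 and 107 FPKM. Taken singly, all 5 overlapped between the groups, with a median of 0.16. The 10 endothelial markers had a median of 0.03, the 11 of stellate cells and matrix 0.07, the 2 of cholangiocytes -0.31, the 11 pericentral -0.03 and the 9 periportal 0.03. The proliferation gene Ccnd1 lay at -0.40 (adjusted p = 0.752). No tested marker was at 0 in all 6 libraries. Markers of neutrophils and of T and natural killer cells were not analysed here. The part that shifts in blood, macrophage or antigen presentation markers have in the 28 genes was not tested.

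**Figure D3:**
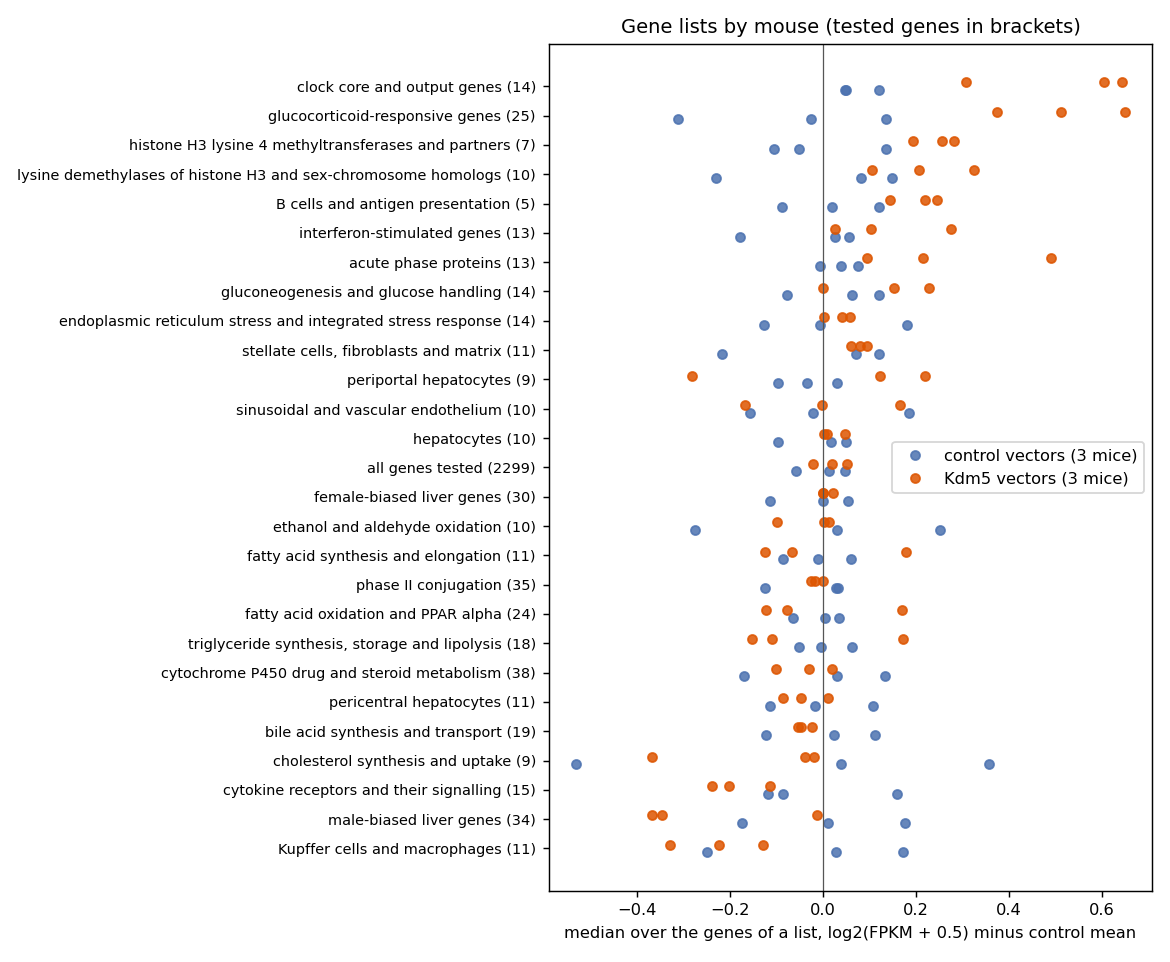
For each list with 5 or more tested genes, points give the median over its tested genes (number in brackets) in each mouse, as log2(FPKM + 0.5) minus the mean of the control males (blue, 3 control males; orange, 3 Kdm5 males). Ranked by the median change of their genes, the clock and the glucocorticoid-responsive lists are highest. Of the lists drawn, the Kupffer cell, male-biased and cytokine receptor lists are lowest, with overlap between the groups in those 3. Single mice depart from this order. In Kdm5 male 1 the acute phase list lies highest (0.49) and the cholesterol list lowest (-0.37).

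The 12 males allow the same vectors to be followed in 6 other animals, which share no library with the comparison above: the Kdm5 and AhR males against the AhR males. There 75 genes passed (3.26%), 21 higher (0.913%) and 54 lower (2.35%). The count was 24 over the compared libraries alone, and 42 without AhR male 2 and 43 and 35 without Kdm5 and AhR male 2 or 3. With median-of-ratios scaling the split was 22 and 31. The AhR group was uneven for the leading genes. Lpin1 measured 13.8, 16.2 and 49.0 FPKM in AhR males 1, 2 and 3, and 47.8, 46.2 and 38.2 FPKM in the 3 Kdm5 and AhR males. Il1r1 measured 8.52, 11.0 and 27.4 FPKM against 25.6, 20.3 and 23.4 FPKM, and Zbtb16 0.54, 1.03 and 5.86 FPKM against 7.13, 5.83 and 6.21 FPKM. AhR male 3 thus lay within or near the range of the Kdm5 and AhR males for these genes, and AhR males 1 and 2 lay below it. Ciart measured 2.59, 6.15 and 8.71 FPKM against 10.4, 9.33 and 9.63 FPKM, so here the groups did not overlap.

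Of the 24 raised genes 16 lay above 0 in these other animals, where 32.4% of all genes did, and their median was 0.20 against -0.08. The median over all genes was -0.02 with median-of-ratios scaling, under which the shares above 0 were not counted. Tacc2, Tns1 and Garem1 passed in the same direction and Spata2l in the opposite one. Tacc2 measured 3.04, 2.46 and 2.42 FPKM in AhR males and 4.61, 4.27 and 4.51 FPKM in Kdm5 and AhR males, without overlap. It rose by 0.67 ± 0.12 (adjusted p = 0.00396) and passed in all 6 fits without 1 of these libraries. Tns1 rose by 0.58 ± 0.14 (adjusted p = 0.0303) and Garem1 by 0.52 ± 0.12 (adjusted p = 0.0153), each passing in 2 of 6. Lpin1, Zbtb16, Ciart and Il1r1 changed in level by 0.96, 1.67, 0.84 and 0.72 without passing (adjusted p = 0.359, 0.153, 0.498 and 0.245). Wrnip1 measured 15.5, 15.4 and 17.4 FPKM against 11.6, 11.9 and 9.99 FPKM and fell again, by 0.51 on the log2 scale (adjusted p = 0.00928), passing in 5 of 6 fits without 1 library. Pnrc1, Slc25a30 and Ugt2b38 did not pass (0.03, 0.09 and -0.46). Pnrc1 measured 34.4, 33.4 and 31.7 FPKM in AhR males and 33.7, 34.8 and 33.5 FPKM in Kdm5 and AhR males, and Slc25a30 5.51, 5.35 and 4.93 FPKM against 7.0, 5.32 and 4.82 FPKM. For both genes the AhR males already lay below every control male. Relative to the mean of the control males, the median of the raised genes was 0.21, 0.37 and 0.85 in the 3 AhR males and 0.58, 0.53 and 0.41 in the 3 Kdm5 and AhR males. These values use the control males on which the genes were chosen, so they are given as levels and not compared. The target Kdm5c measured 6.92, 7.69 and 7.81 FPKM in AhR males and 5.11, 5.36 and 4.86 FPKM in Kdm5 and AhR males, and fell by 0.51 on the log2 scale (adjusted p = 0.0124).

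AhR male 3 was left out in an alternative added after seeing the data. It was picked because it is high for these same genes, so changes of such genes had to grow without it and nothing is read from that growth. Of the 24 raised genes 19 then lay above 0, with a median of 0.36 against -0.08 for all genes. The remaining AhR pair is then assumed to vary like the other groups. Zbtb16 (2.45, adjusted p = 0.0253), Il1r1 (1.2, 0.0154), Mtss1 (0.95, 0.00385), Rhobtb1 (0.86, 0.0270), Tns1 (0.71, 0.0148), Tacc2 (0.62, 0.0154) and Nr1i2 (0.37, 0.0452) then passed. Without other libraries the values went the other way. Over all 6 fits that leave out 1 library, Zbtb16 lay as low as 1.14 (adjusted p up to 0.433), Il1r1 0.39 (0.651), Mtss1 0.44 (0.242), Rhobtb1 0.38 (0.392) and Nr1i2 0.02 (0.970), and each passed in 1 of the 6. Of all genes, 28 then passed higher and 28 lower. Lpin1 moved to 1.52 (adjusted p = 0.139), Garem1 no longer passed (0.44, adjusted p = 0.0826), and Wrnip1 stayed under the threshold at -0.45 (adjusted p = 0.0498). Why AhR male 3 differs from its group was not tested.

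**Figure D4:**
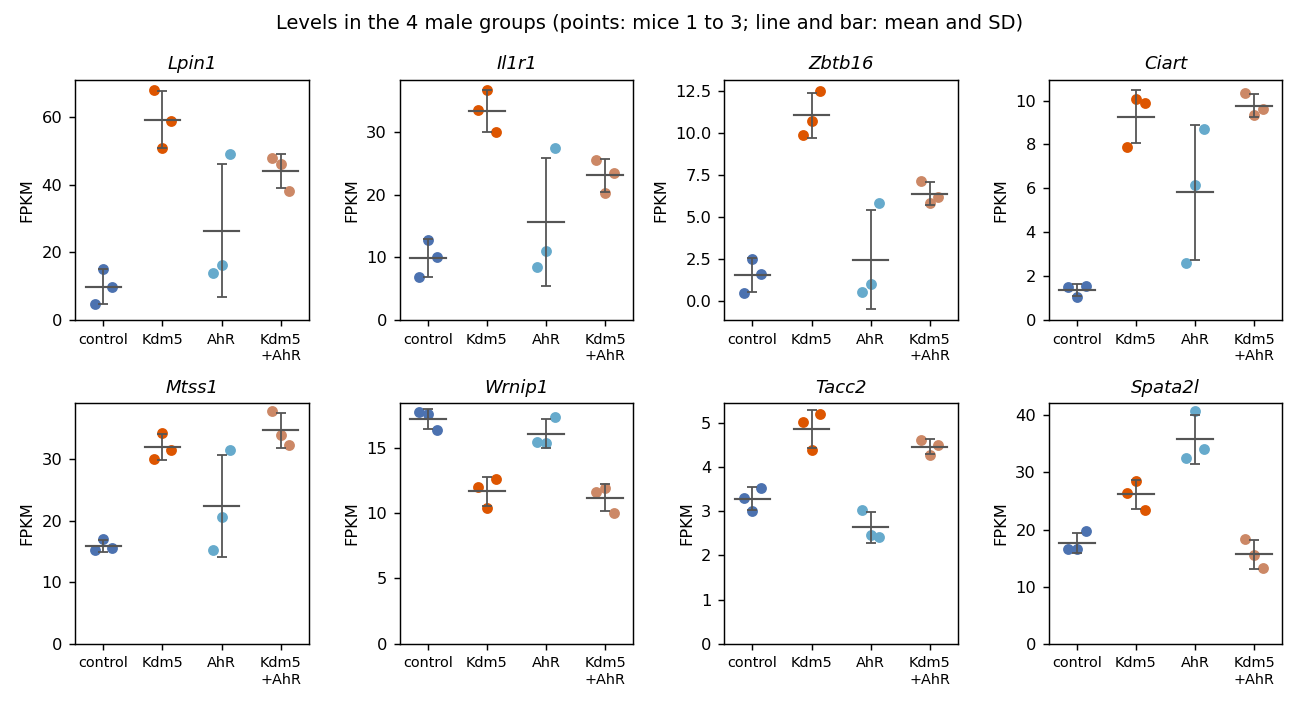
FPKM of 8 genes in the 4 male groups, with 1 point per mouse, a line at the mean and bars of 1 SD over 3 mice. Lpin1, Il1r1, Zbtb16, Ciart and Mtss1 are uneven among the AhR males, Wrnip1 is low in both groups with the Kdm5 vectors, and Spata2l is high in the AhR males and low in the Kdm5 and AhR males.

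The effect of the Kdm5 vectors without AAV-shAhR was then set against that with it. This difference passed for 37 genes (1.61%), in 32 of them with the higher effect without AAV-shAhR (1.39%) and for 6 of the 24 raised genes, whose choice rests on 6 of the same 12 libraries, so nothing is read from that share. The count of 37 lay between 5 and 44 without 1 library. With median-of-ratios scaling it was 25, in 20 of them with the higher effect without AAV-shAhR. Spata2l measured 32.5, 40.7 and 34.2 FPKM in AhR males and 18.3, 15.5 and 13.2 FPKM in Kdm5 and AhR males. It rose with the Kdm5 vectors alone and fell by 1.17 on the log2 scale in the presence of AAV-shAhR (adjusted p = 8.76e-06). The difference of 1.73 ± 0.17 (adjusted p = 4.43e-06) passed in each of 12 fits without 1 library. Herpud1 measured 309, 266 and 329 FPKM in AhR males and 264, 202 and 213 FPKM in Kdm5 and AhR males, with an effect of -0.42 there and a difference of 1.33 ± 0.30 (adjusted p = 0.0304). Rad54l2, Morc4, Rab27a and Zhx3 had differences between 0.86 and 1.26. Of these 6, Spata2l alone still passed without AhR male 3, with 7 genes passing in all.

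In females the same vectors gave 158 genes (6.87%), 78 higher (3.39%) and 80 lower (3.48%). That count rested on the other groups in the fit and on single libraries: it was 1 over the compared libraries alone, and from 23 without control female 1 to 279 without control female 2. The target Kdm5c measured 11.07, 9.32 and 10.6 FPKM in control females and 9.94, 9.9 and 9.05 FPKM in Kdm5 females. These groups overlapped, with a change of -0.09 ± 0.11 log2 that did not pass (adjusted p = 0.660). Its male effect minus its female effect, -0.28 ± 0.16, did not pass either (adjusted p = 0.367). Of the 24 genes raised in males, Fam214a and Ppp2r5e rose in females too. Fam214a measured 11.0, 14.4 and 10.3 FPKM in control females and 19.6, 26.1 and 19.5 FPKM in Kdm5 females (0.84 ± 0.20, adjusted p = 0.0174). Ppp2r5e measured 8.88, 6.92 and 8.12 FPKM against 10.9, 11.8 and 10.9 FPKM (0.47 ± 0.12, adjusted p = 0.0277). Wrnip1 measured 17.4, 15.7 and 17.9 FPKM against 13.3, 11.5 and 13.9 FPKM (-0.39 ± 0.11, adjusted p = 0.0341), the same direction as in both male comparisons. None of these female groups overlapped, but the genes are named because they passed in females, and the share over all genes was not counted. Without 1 female library Fam214a passed in 3 of 6 fits, Wrnip1 in 2 and Ppp2r5e in 0 (highest adjusted p = 0.147). Over the 24 genes the female median was -0.02, against -0.02 over all genes, and 11 lay above 0.

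The difference between the male and the female effect passed for 40 genes (1.74%), 21 with the higher effect in males (0.913%) and 19 with the higher effect in females (0.826%). Without 1 library the count lay between 1 and 67. These included Lpin1, Il1r1, Herpud1, Rhobtb1 and Nr1i2 of the raised genes and Pnrc1 of the lowered, which were again chosen on libraries that this difference uses. Lpin1 measured 30.9, 46.5 and 27.8 FPKM in control females and 27.4, 13.2 and 13.1 FPKM in Kdm5 females, an effect of -1.0 ± 0.50 that did not pass (adjusted p = 0.232). Control females thus lay above control males for this gene, and below Kdm5 males. The difference of effects was 3.66 ± 0.71 (adjusted p = 0.0210) and passed in 8 of 12 fits without 1 library. Il1r1 measured 17.3, 20.1 and 21.5 FPKM against 17.3, 16.8 and 11.2 FPKM, with a difference of 2.13 ± 0.44 (adjusted p = 0.0278) that passed in 7 of 12. Nr1i2 measured 42.5, 39.9 and 36.3 FPKM against 33.8, 32.9 and 37.9 FPKM in overlapping groups (difference 0.72 ± 0.17, adjusted p = 0.0375). For Zbtb16 and Ciart the differences of 3.05 ± 0.86 and 2.51 ± 0.77 did not pass (adjusted p = 0.0723 and 0.0949).

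**Figure D5:**
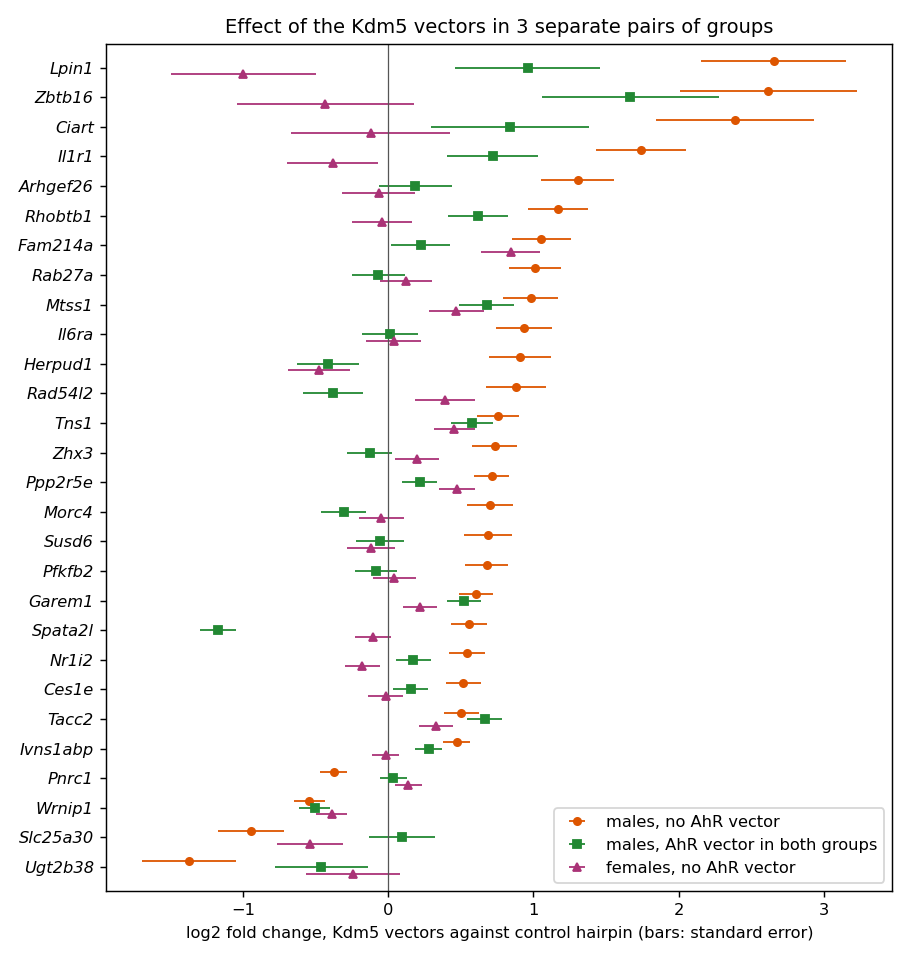
Log2 fold changes with standard errors for the 28 genes in 3 pairs of groups (circles, Kdm5 against control males; squares, Kdm5 and AhR against AhR males; triangles, Kdm5 against control females). Wrnip1 lies left of 0 and Tacc2, Tns1, Mtss1, Garem1, Ppp2r5e and Fam214a lie right of 0 in all 3. Between the male pairs, 8 of the 24 raised genes, among them Spata2l and Herpud1, and 2 of the 4 lowered genes change side.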

How the data were processed

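RNA of whole liver was measured by sequencing in 24 mice, and 18 of them, in 6 groups of 3, enter the comparisons described. Groups were taken from the labels, and mice were numbered in accession order inside each group, which pairs nothing. The authors deposited 1 value per gene and library as FPKM, per the file headers. HISAT, Bowtie2 and GRCm38.p6 are named in the submitters' processing notes; their versions, the counting step and the use of strand are not given in the sources used, so overlapping genes cannot be separated. The table holds 2372 genes, chosen in a way not stated, so an adjusted p holds within it only.

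Values were tested as log2(FPKM + 0.5) with limma 3.58.1 in R 4.3.3, with 1 mean for each of 8 groups over 24 libraries, an intensity trend and robust moderation (16 residual degrees of freedom). The filter asked for 1 FPKM or more in 3 or more libraries, which kept 2299 genes and dropped 73. P-values were adjusted by Benjamini-Hochberg over the 2299, with a threshold of 0.05. P-values and standard errors use 1 spread per gene, taken over the mice of all 8 groups, whose cages and batches are unknown. In the main fit a gene therefore has the same standard error in each comparison of 2 groups. It is not the spread of the compared mice alone. Named genes are Kdm5c, Kdm5d, every gene that passed, and up to 4 members of each list with the smallest p. All others, such as Npas2, Nr1d2, Noct, Abtb2, Tbx3 and Klf13, were named after their values were seen, marked so or not. The members, lists and tests were chosen with earlier results of these data known. The procedure was tested on simulated data. Alternatives were median-of-ratios scaling, no filter, a filter of 5 FPKM, pseudocounts of 0.1 and 1, the 12 male libraries, the compared libraries alone, no trend, library weights, and each library left out. Promoter windows and gene coordinates are RefSeq's, on GRCm38.p6.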

Additional observations from a re-analysis of the deposited data

Results flagged for a closer look

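For 12 effects a test of the difference between 2 settings passed, in limma with adjustment over 2299 genes. Between the sexes, as the male effect minus the female effect in log2, these were Lpin1 (3.66), Il1r1 (2.13), Herpud1 (1.39), Rhobtb1 (1.21), Nr1i2 (0.72) and Pnrc1 (-0.51). They passed in 8, 7, 7, 3, 5 and 1 of 12 fits that left out 1 library. Between males without and with AAV-shAhR, as the effect without minus the effect with it, they were Spata2l (1.73), Herpud1 (1.33), Rad54l2 (1.26), Rab27a (1.08), Morc4 (1.01) and Zhx3 (0.86). They passed in 12, 6, 4, 2, 6 and 2 of 12 such fits. Without AhR male 3, Spata2l was the 1 of the 6 that passed. All 12 genes had been chosen on 6 libraries that these differences use.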

How the results depend on the processing

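The count of 28 genes became 26 with median-of-ratios scaling, 34 with no filter, 23 with a filter of 5 FPKM, 25 and 28 with pseudocounts of 0.1 and 1, 21 over the 12 male libraries, 28 with no trend, 66 with library weights and 19 over the compared libraries alone. Without 1 library it lay between 0 and 14. None of the 28 turned sign in any of these settings that tested it. Since the groups of these genes did not overlap, the sign could not turn without 1 library or with another pseudocount, filter or moderation. Nothing is read from it. In all settings that tested the gene, other than the fits without 1 library, 9 passed, among them Rab27a, which the filter of 5 FPKM dropped. Those settings include the 12 male libraries and the compared libraries alone. Of the 28, only Ciart, Tacc2, Pnrc1 and Ugt2b38 failed in a setting that kept every library. None of the 28 passed in all 6 fits without 1 library, and 10 failed in all 6. In males with AAV-shAhR the count was 179 with library weights, 24 over the compared libraries alone, and between 35 and 65 without 1 library. For the difference between sexes it was 145 with weights and between 1 and 67 without 1 library. For the difference between males without and with AAV-shAhR it was 97 with weights, 13 over the 12 male libraries, and between 5 and 44 without 1 library. In females it was 331 with weights, 1 over the compared libraries alone, and between 23 and 279 without 1 library. The cause was not tested, except that fewer samples enter the fits without 1 library or over fewer groups.

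Some genes that had not passed turned sign near 0 in a fit without 1 library. Over these 6 fits Scd1 lay between -1.23 and 0.017 (highest without control male 1), Dhcr7 between -0.26 and 0.054 (Kdm5 male 1) and Syvn1 between -0.18 and 0.0033 (control male 2). Turning below 0 without control male 3, Cat lay between -0.0023 and 0.15, H2-DMb1 between -0.13 and 0.27, Ptprb between -0.0080 and 0.23, Hgf between -0.017 and 0.47, and Rgs5 between -0.055 and 0.18, with -0.0025 without Kdm5 male 3. Sox9 lay between -0.20 and 7.15e-06, the latter without control male 3, and at 0.0090 with library weights. With AAV-shAhR and without AhR male 3, Rab27a moved to 0.037, Susd6 to 0.12 and Pfkfb2 to 0.057. The depth behind FPKM is unknown, so the precision of low genes such as Rab27a, Morc4 and Zbtb16 cannot be given. No paired analysis was possible because replicate numbers were given in accession order.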
